A study of Homo sapiens with 45 samples.

Results

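The genes described here are 35 members of the fibroblast growth factor (FGF) system, chosen by name from the pathway. The choice was made with earlier results of these data known. The members are 22 FGF genes, the receptor genes FGFR1 to FGFR4 and FGFRL1, the coreceptor genes KL and KLB, and the feedback genes SPRY1, SPRY2, SPRY4, SPRED1, SPRED2 and DUSP6. They were 35 of the 41582 genes to which transcripts could be assigned. Levels were measured by poly(A) RNA sequencing in 45 libraries of human cancer cell lines. Ewing sarcoma was represented by 7 lines (TC71, SKES1, RDES, A673, MHHES1, EW24 and EW3) and osteosarcoma by 6 (U2OS, SAOS2, MG63, G292, KHOS and HOS-MNNG), with 3 libraries a line. Ewing sarcoma is a bone and soft tissue tumour driven by a gene fusion that involves an ETS transcription factor gene, and osteosarcoma is a bone tumour whose cells make bone matrix. The labels give no treatment for these 13 lines. A further 6 libraries came from A673 cells that carry sh908, a hairpin directed against KCNN1, which encodes a small-conductance potassium channel: 3 without doxycycline, called uninduced here, and 3 with doxycycline, called induced. All 6 carry the hairpin construct, so the parental A673 libraries are the ones without it, and whether the sh908 cells are a clone or a pool is not given in the sources used here. HOS-MNNG and KHOS both derive from the HOS line, so they are not independent sources, yet they are counted as separate lines except where stated. G292 is a cloned line. The 3 libraries of a line are not independent tumours.

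Secreted FGFs bind receptor tyrosine kinases together with heparan sulfate, the receptors signal through FRS2, GRB2, RAS and the ERK kinases, and ERK activity induces genes whose products hold the same pathway back. Sprouty proteins (SPRY) and the related SPRED proteins restrain RAS and RAF, and DUSP6 removes phosphate from ERK. The hormone-like members FGF19, FGF21 and FGF23 need a Klotho coreceptor, KL or KLB, to act on their targets, and FGF11 to FGF14 stay inside the cell, where they bind voltage-gated sodium channels. In bone, FGF2 and FGF18 act on cells of the osteoblast and cartilage lineages, and FGF23 is made by osteocytes and lowers blood phosphate.

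The DNA upstream of 5 members is shown because the results below turn on them: SPRY2 and SPRED1 were lower in the Ewing sarcoma lines in every setting tried, SPRY4 and DUSP6 ran from under 1 TPM to high levels within a tumour type, and FGF23 was read in all sh908 libraries and in no parental A673 library. Each run is the 250 bases before the start given in the RefSeq promoter table for GRCh38.p14, written 5′ to 3′ along the gene. Capitals mark matches on either strand to CCGGAA, the core recognised by many ETS factors, or GGGCGG, the GC box.
SPRY2, chr13:80341127-80341376, minus strand: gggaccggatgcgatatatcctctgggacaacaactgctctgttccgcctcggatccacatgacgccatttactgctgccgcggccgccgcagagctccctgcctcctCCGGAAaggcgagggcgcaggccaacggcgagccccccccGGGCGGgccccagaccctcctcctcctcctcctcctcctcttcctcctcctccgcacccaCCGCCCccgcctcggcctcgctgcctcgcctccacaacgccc
SPRED1, chr15:38252586-38252835, plus strand: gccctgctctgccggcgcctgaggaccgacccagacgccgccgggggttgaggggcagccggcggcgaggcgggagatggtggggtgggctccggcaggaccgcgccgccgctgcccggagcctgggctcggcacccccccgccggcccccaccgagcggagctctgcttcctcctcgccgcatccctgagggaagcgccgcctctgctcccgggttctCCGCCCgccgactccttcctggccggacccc
SPRY4, chr5:142324248-142324497, minus strand: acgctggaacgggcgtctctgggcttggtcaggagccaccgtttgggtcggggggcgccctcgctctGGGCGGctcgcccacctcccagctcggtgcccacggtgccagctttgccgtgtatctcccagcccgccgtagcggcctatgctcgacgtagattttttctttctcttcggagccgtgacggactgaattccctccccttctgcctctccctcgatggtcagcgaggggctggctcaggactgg
DUSP6, chr12:89352502-89352751, minus strand: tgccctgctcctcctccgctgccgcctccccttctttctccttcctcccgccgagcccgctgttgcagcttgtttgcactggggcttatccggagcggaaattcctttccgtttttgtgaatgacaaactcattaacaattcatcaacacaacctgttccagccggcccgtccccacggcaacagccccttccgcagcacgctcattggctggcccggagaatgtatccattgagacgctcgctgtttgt
FGF23, chr12:4379713-4379962, minus strand: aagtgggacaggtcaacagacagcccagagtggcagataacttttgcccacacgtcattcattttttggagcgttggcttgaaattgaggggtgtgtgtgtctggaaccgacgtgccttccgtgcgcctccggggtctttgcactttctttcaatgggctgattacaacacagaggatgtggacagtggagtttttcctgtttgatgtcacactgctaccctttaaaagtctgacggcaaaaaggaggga
The start used for SPRY4 lies inside its annotated span, chr5:142310430-142325021. GC content was 70.4% for SPRY2, 78.4% for SPRED1, 65.6% for SPRY4, 57.2% for DUSP6 and 49.6% for FGF23. Promoters were found for 27 of the 35 members, and 6 motifs were searched on both strands: CCGGAA, the pair GGAAGGAA, the cyclic AMP element TGACGTCA, the TATA-like TATAAA, the GC box GGGCGG and the E-box CACGTG. GGAAGGAA repeats are of interest in Ewing sarcoma because the fusion proteins bind them. CCGGAA was present in 1 of the 27, SPRY2, against 14.5% of 35116 promoters of this length, and GGAAGGAA was present in 0 of 27 against 3.06%. The GC box was present in 16 of 27 against 42.6%, CACGTG in 2 (FGF14 and FGFRL1) against 6.34%, TATAAA in 2 (FGF6 and FGF13) against 10.7% and TGACGTCA in 1 (FGF6) against 1.65%. SPRY2 held 1 CCGGAA and 2 GC boxes, SPRY4 and SPRED1 held 1 GC box each, and none of the 6 motifs matched in the windows of DUSP6 and FGF23. These are letter matches in a short window, and no binding was measured.

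Total estimated counts per library ranged from 23132161 to 51413254 in the 21 Ewing sarcoma libraries, from 15974173 to 44911542 in the 18 osteosarcoma libraries, from 16619617 to 22870909 in the uninduced and from 20877880 to 24818664 in the induced sh908 libraries. Of 6 Ewing sarcoma markers, 5 (NR0B1, NKX2-2, STEAP1, PRKCB and ITM2A) were called higher in the Ewing sarcoma lines, although NR0B1 was only 0.316 TPM in RDES. Of 6 osteoblast markers 4 were tested and 3 (RUNX2, SPP1 and COL1A1) were called lower in the Ewing sarcoma lines. The late osteoblast marker SP7 reached 22.1 TPM in SAOS2 and IBSP reached no more than 0.367 TPM in any line, so a full osteoblast programme was not seen across the osteosarcoma lines. Of 6 markers of other cell types, 5 were tested and 1, the endothelial PECAM1, was called lower in the Ewing sarcoma lines (at most 1.41 TPM in any line), while the epithelial EPCAM reached 27.5 TPM in SAOS2 and was called by DESeq2, as was CDH1. PECAM1 was also called lower in uninduced sh908 than in parental A673 cells, and the part of these genes in the results was not tested. Replicate 3 of both sh908 groups stood apart from replicates 1 and 2: the correlation of their deviations from the group means, across genes, was 0.881 between the 2 replicates numbered 3.

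Most of the ligand genes were near the floor in most lines. In TPM, a level scaled for transcript length and depth so that genes and libraries can be set side by side, 8 members were below 1 TPM in the mean of all 13 lines: FGF3, FGF4, FGF6, FGF16, FGF17, FGF20, FGF23 and KLB, the highest being FGF17 at 0.977 TPM. Only FGFR1, FGFRL1, SPRY2, SPRED1 and SPRED2 were at 1 TPM or more in all 13 lines, and the other 22 members were present at this level in some lines and not in others. Counting the 18 secreted ligands, MG63 had 6 at 1 TPM or more, U2OS had 5, G292 and MHHES1 had 4 each, and SAOS2 had 0.

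**Figure D1:**
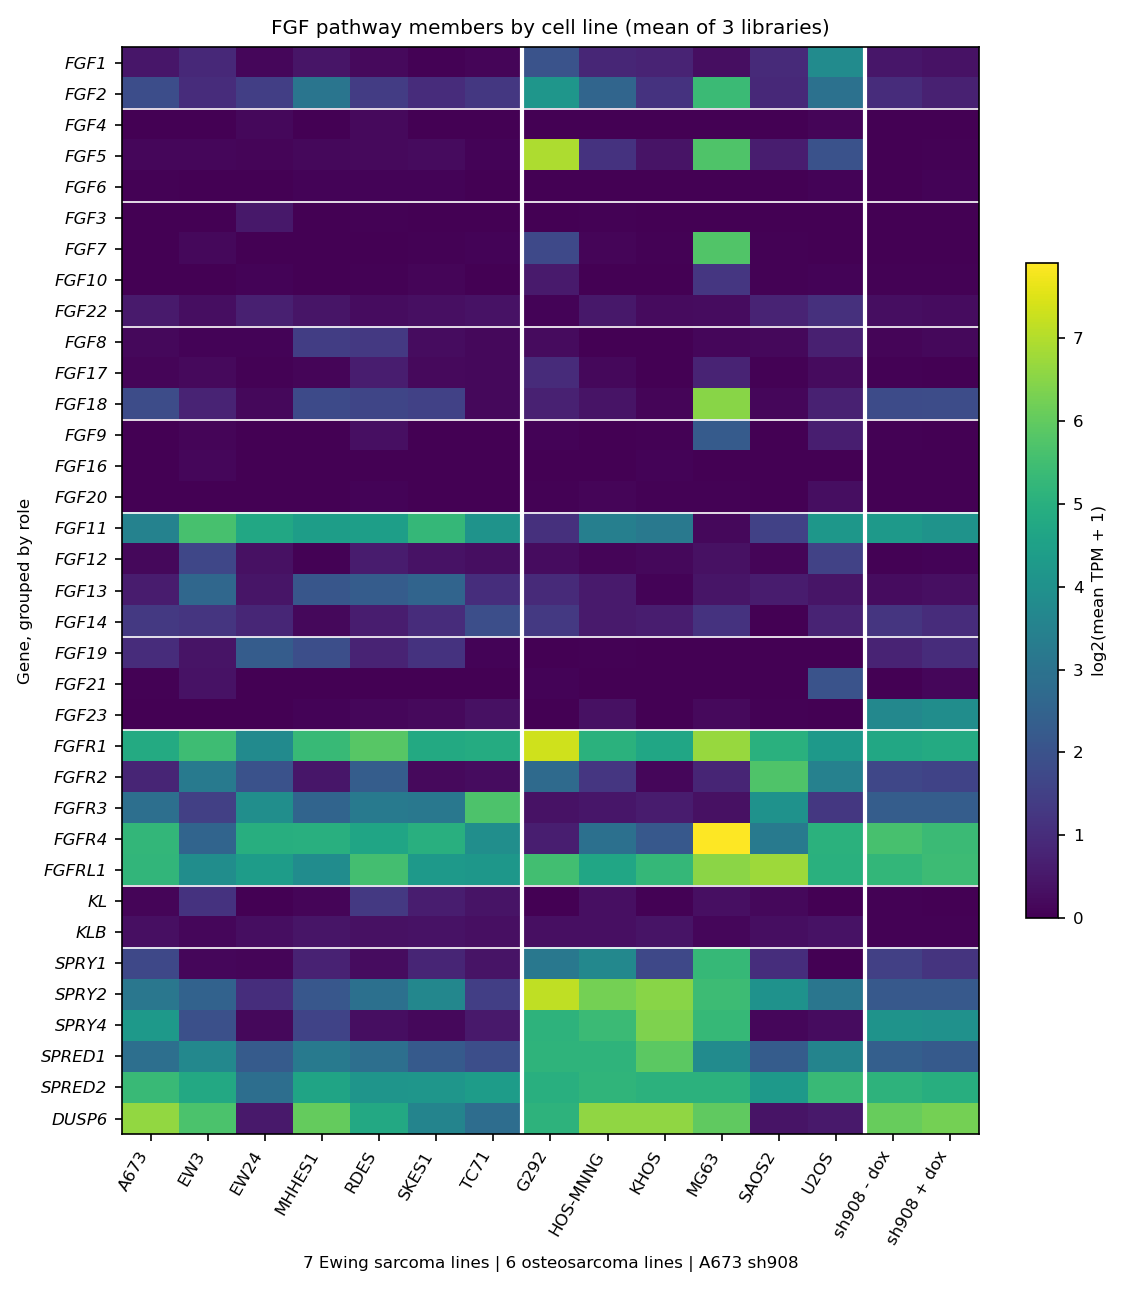
Mean level of each of the 35 members, in log2(mean TPM + 1), by cell line (columns: 7 Ewing sarcoma lines, 6 osteosarcoma lines and the sh908 groups of A673). Rows are grouped by role, and colour runs from dark (0) to yellow (highest); most receptor and feedback rows and FGF11 are bright in most lines, most other ligand rows are dark except in single lines such as MG63 and G292, and FGF23 is above 1 TPM only in the sh908 groups.

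Between the tumour types, with the 3 libraries of a line summed so that the line was the replicate, 24 of the 35 members had enough counts to be tested with edgeR's quasi-likelihood test and Benjamini-Hochberg adjustment over 22000 genes, and 11 did not. Of the 24, 7 were called at an adjusted p (false discovery rate) under 0.05: FGF5, FGF1, FGFRL1, SPRY2 and SPRED1 were lower and FGF19 and FGF13 were higher in the Ewing sarcoma lines. FGF19 passed the count filter through the Ewing sarcoma lines alone, so its difference was fixed by the filter. Apart from it 6 of 23 members were called, beside 14.4% of all genes tested. By direction, 1 of the 23 was higher, beside 5.96% of all genes, and 5 were lower, beside 8.4%. The median log2 fold change (Ewing sarcoma minus osteosarcoma) was -1.04 over the 24 members and -0.06 over all genes tested. Of the 24, 6 were positive, FGF19 among them. With libraries as units and the replicate block (limma), the members' median was -0.43 with 10 of 22 positive, and that of all genes was 0.02. Apart from FGF19, line means did not overlap between the tumour types for 1 of the 23 members, FGF5, beside 5.58% of all genes tested. On the TPM scale, an exact two-sided permutation test of log2(TPM + 1) was run over the 13 lines. It gave an unadjusted p under 0.05 for 10 of the 24 tested members, beside 28.3% of the 22000 genes. The 10 include FGF19, whose difference was fixed by the filter. With FGF20, which was too low for the edgeR test, the count was 11 of 35, and the smallest p this design allows is 0.000583.

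**Figure D2:**
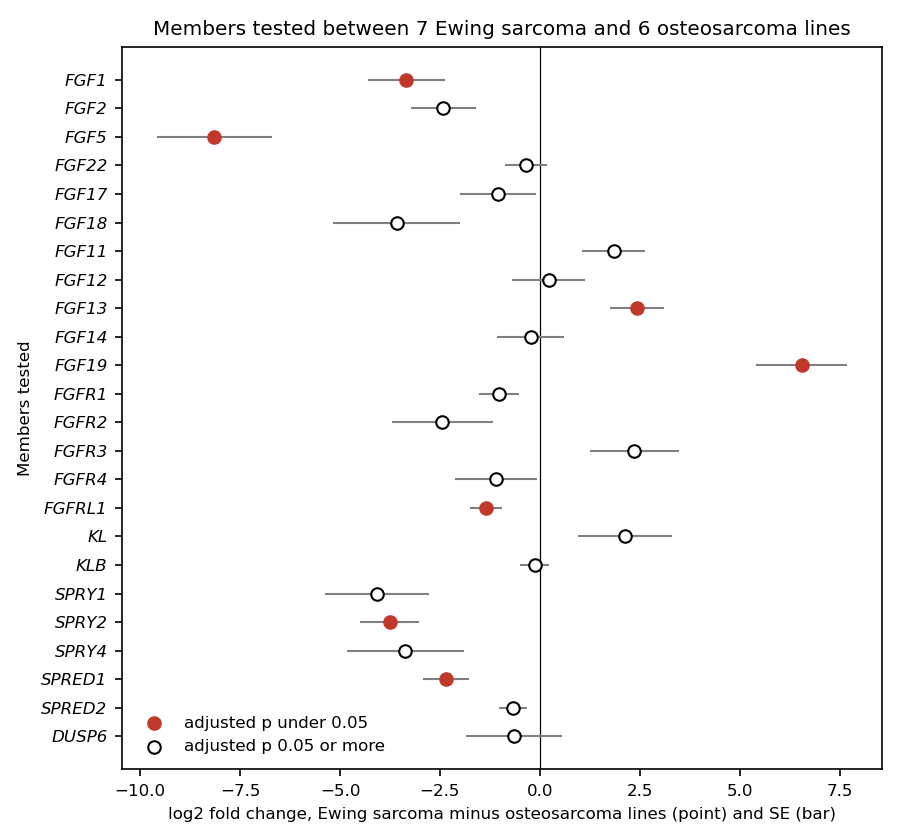
Fitted log2 fold change of the 24 tested members between 7 Ewing sarcoma and 6 osteosarcoma lines (points) with its standard error (bars), coloured by whether the adjusted p is under 0.05. FGF5 lies farthest to the left at -8.15 and FGF19 farthest to the right at 6.55; the 6 feedback genes lie left of 0.

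FGF5, a secreted ligand known for ending the growth phase of hair, had the widest fitted difference of the 24 members tested. Its mean level ran from 0.0644 TPM in TC71 to 0.178 TPM in the Ewing sarcoma lines (median 0.0975) and from 0.345 TPM in KHOS through a median of 2.10 to 121 TPM in G292. Every osteosarcoma line was thus above every Ewing sarcoma line, but the osteosarcoma lines themselves fell far apart: G292 had 121 ± 5.37 TPM (SD, n = 3 libraries) and MG63 52.4 ± 9.40, while U2OS had 2.98, HOS-MNNG 1.21 and SAOS2 0.55. The log2 fold change was -8.15 (SE 1.44, edgeR adjusted p = 0.0030). These are bulk libraries, in which fewer expressing cells and less RNA per cell cannot be told apart. FGF5 lies at chr4:80266588-80291017 and was called in 21 of 21 settings run, with a log2 fold change of -4.96 with the replicate block.

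FGF1 and FGF2 form the FGF1 subfamily; FGF1 can bind all FGF receptors and FGF2 is widely used to keep cells dividing in culture. FGF1 ranged from 0.0261 TPM (SKES1) to 0.89 in EW3 with a median of 0.142 in the Ewing sarcoma lines, and from 0.224 (MG63) through a median of 0.870 to 13.2 TPM (U2OS) in the osteosarcoma lines. The groups overlapped, since A673, MHHES1 and EW3 were above MG63. The log2 fold change of FGF1 was -3.34 (SE 0.96, edgeR adjusted p = 0.034), and without U2OS it was -2.10 with an adjusted p of 0.0962. The call of FGF1 was also lost without EW24, MHHES1, RDES, SKES1 or TC71, each time with a log2 fold change between -3.40 and -3.14. FGF2 ran from 0.988 (SKES1) through a median of 1.67 to 7.35 TPM (MHHES1) in the Ewing sarcoma lines and from 0.882 (SAOS2) through a median of 5.83 to 41.1 TPM (MG63) in the osteosarcoma lines. MG63 and G292 were above every Ewing sarcoma line and SAOS2 was below every one. FGF2 was not called (log2 fold change -2.42, SE 0.82, edgeR adjusted p = 0.064), while DESeq2 gave an adjusted p of 0.00654, and leaving out MHHES1, KHOS or SAOS2 brought the edgeR value to 0.0423, 0.0469 or 0.0333. Without MG63 the log2 fold change of FGF2 was -1.43 (adjusted p = 0.208), and with the replicate block -1.48 (0.109). FGF2 shares 637 exon bases with NUDT6 on the opposite strand, and whether the counting used strand is not given in the sources used here.

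Several other secreted ligands were held by 1 line. MG63 held most of FGF18, a ligand of cartilage and bone growth, at 90.6 ± 6.58 TPM (next highest A673 at 2.54), most of FGF7, the keratinocyte growth factor, at 53.7 ± 8.98 TPM (next highest G292 at 2.35), and the highest FGF9 and FGF10 at 3.87 and 1.38 TPM. FGF9 is a ligand of skeletal and gonadal development, and FGF10 directs limb and lung budding. FGF21, a liver hormone of fasting, was at 3.07 TPM in U2OS, which also had the highest FGF22, a ligand of synapse formation, at 1.16 TPM. FGF8, a ligand of limb and midbrain patterning, was highest in MHHES1 (1.69 TPM) and RDES (1.51 TPM). Between the tumour types FGF18 had a log2 fold change of -3.58 (SE 1.58) with an edgeR adjusted p of 0.149, and without MG63 it was 1.89 (adjusted p = 0.154), so the direction turned on that line. The medians of the lines were 1.90 TPM in Ewing sarcoma and 0.488 TPM in osteosarcoma. FGF17 and FGF22 were not called either. FGF7, FGF8, FGF9, FGF10 and FGF21 were too low in too many lines for the edgeR test described above. FGF7 was tested in 5 other settings and called lower in the Ewing sarcoma lines in each, but MG63 held 95.6% of its osteosarcoma sum and was in all 5, and the medians of the lines were 0.0127 and 0.0498 TPM.

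FGF19, the intestinal hormone that holds back bile acid synthesis in the liver, was the member most enriched in the Ewing sarcoma lines by fold, at a low level. It ran from 0.0446 (TC71) through a median of 1.02 to 3.95 ± 0.39 TPM (EW24), with MHHES1 at 2.71, SKES1 at 1.25, RDES at 0.73 and EW3 at 0.32. In the osteosarcoma lines FGF19 lay between 0 and 0.033 TPM, so that the groups did not overlap. The fitted log2 fold change was 6.55, given as a description: 6 Ewing sarcoma lines and 0 osteosarcoma lines reached the count filter. FGF19 lies at chr11:69698238-69704022. The other endocrine ligand genes, FGF21 and FGF23, were too low for the edgeR test described above. The exact permutation test of log2(TPM + 1) between the tumour types gave them an unadjusted p of 0.596 and 0.896. Without the count filter edgeR called neither (adjusted p = 0.265 and 0.957).

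The intracellular FGF genes included the most abundant FGF of the Ewing sarcoma lines. FGF11 ran from 10.4 (A673) through a median of 20.4 to 47.8 TPM (EW3) in these lines and from 0.134 (MG63) through a median of 5.05 to 17.3 TPM (U2OS) in the osteosarcoma lines. Only U2OS among the osteosarcoma lines reached the range of the Ewing sarcoma lines. FGF11 was not called (log2 fold change 1.84, SE 0.78, edgeR adjusted p = 0.133); DESeq2 gave an adjusted p of 0.0376, and limma with the libraries as units and the line as a random effect gave 2.66 with an adjusted p of 0.000536. FGF11 shares exon bases with other annotated genes on its own strand, up to 4175 bases, so part of its count could belong to those. FGF13, at chrX:138614727-139205023, ran from 0.369 (EW24) through a median of 3.35 to 5.2 TPM (EW3) in the Ewing sarcoma lines and from 0.0615 (KHOS) through a median of 0.431 to 0.92 TPM (G292) in the osteosarcoma lines. EW24 and A673 (0.52 TPM) lay within the osteosarcoma range and the other 5 Ewing sarcoma lines above it. FGF13 was called (log2 fold change 2.43, SE 0.68, edgeR adjusted p = 0.0298) and lost the call without EW3, SKES1, MG63 or U2OS, with adjusted p between 0.0524 and 0.0607. FGF12 and FGF14 were at most 2.18 TPM (EW3) and 2.74 TPM (TC71) and were not called.

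Which receptor gene led differed from line to line. FGFR1 and FGFRL1 were at 1 TPM or more in all 13 lines, FGFR4 in 12, FGFR3 in 9 and FGFR2 in 7. FGFR1 made up the largest share of the summed FGFR1 to FGFR4 level in 3 of 7 Ewing sarcoma lines (EW3, MHHES1 and RDES) and 3 of 6 osteosarcoma lines (G292, HOS-MNNG and KHOS). FGFR4 led in A673, EW24, SKES1, MG63 and U2OS, FGFR3 led in TC71 with 54.3% of the sum, and FGFR2 led in SAOS2 with 48.4%. The sum itself ran from 28.9 TPM in KHOS to 342 TPM in MG63, and lay between 58.1 and 93.6 TPM in the Ewing sarcoma lines.

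FGFR1, the receptor of most mesenchymal cells, ran from 12.9 (EW24) through a median of 28.1 to 57.3 TPM (RDES) in the Ewing sarcoma lines and from 18.5 (U2OS) through a median of 31.6 to 160 TPM (G292) in the osteosarcoma lines. G292 and MG63 (102 TPM) were above the others and the remaining 4 osteosarcoma lines lay within the Ewing sarcoma range. FGFR1 was not called (log2 fold change -1.02, SE 0.50, edgeR adjusted p = 0.189), and without G292 the value was -0.47. FGFR2, whose splice forms divide epithelial from mesenchymal ligand binding, ran from 0.16 (SKES1) to 8.58 TPM (EW3) in the Ewing sarcoma lines with a median of 0.76, and from 0.11 (KHOS) to 51.8 TPM (SAOS2) in the osteosarcoma lines with a median of 3.51. FGFR2 was not called (log2 fold change -2.44, SE 1.26, edgeR adjusted p = 0.219), and without SAOS2 its log2 fold change was -0.70 (adjusted p = 0.728).

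FGFR3, a brake on cartilage growth, was above 1 TPM in all 7 Ewing sarcoma lines, from 1.85 (EW3) through a median of 8.03 to 50.5 ± 11.4 TPM (TC71). In the osteosarcoma lines FGFR3 was at most 1.45 TPM except in SAOS2, which had 15.2 ± 1.21 TPM. With all lines edgeR did not call the difference (log2 fold change 2.36, SE 1.11, edgeR adjusted p = 0.175), while DESeq2 called it (adjusted p = 0.0474). Without SAOS2 the edgeR log2 fold change of FGFR3 was 4.58 with an adjusted p of 0.00902, and without TC71 it was 1.29 (adjusted p = 0.433). FGFR4, an FGF19 receptor in the liver and a muscle lineage receptor, ran from 4.81 (EW3) through a median of 30.1 to 36.9 TPM (A673) in the Ewing sarcoma lines, and 5 of these 7 lines lay between 24 and 36.9 TPM. In the osteosarcoma lines FGFR4 ran from 0.59 (G292) through a median of 7.61 to 239 ± 17.3 TPM (MG63), with U2OS at 31.9 TPM. FGFR4 had a log2 fold change of -1.10 (SE 1.03, edgeR adjusted p = 0.516) with MG63 and 1.31 (adjusted p = 0.262) without it, so its direction turned on that line.

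FGFRL1, a receptor without a kinase domain, ran from 13.4 (MHHES1) through a median of 18.4 to 45.7 TPM (RDES) in the Ewing sarcoma lines and from 24.5 (HOS-MNNG) through a median of 41.1 to 106 TPM (SAOS2) in the osteosarcoma lines. MG63 and SAOS2 were above every Ewing sarcoma line, and RDES and A673 lay inside the osteosarcoma range. FGFRL1 was called (log2 fold change -1.35, SE 0.41, edgeR adjusted p = 0.0411), but in only 11 of 21 settings, with an adjusted p of up to 0.0822. The coreceptor KL was highest in RDES (1.48 TPM) and EW3 (1.22 TPM), KLB was at most 0.362 TPM, and neither was called.

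**Figure D3:**
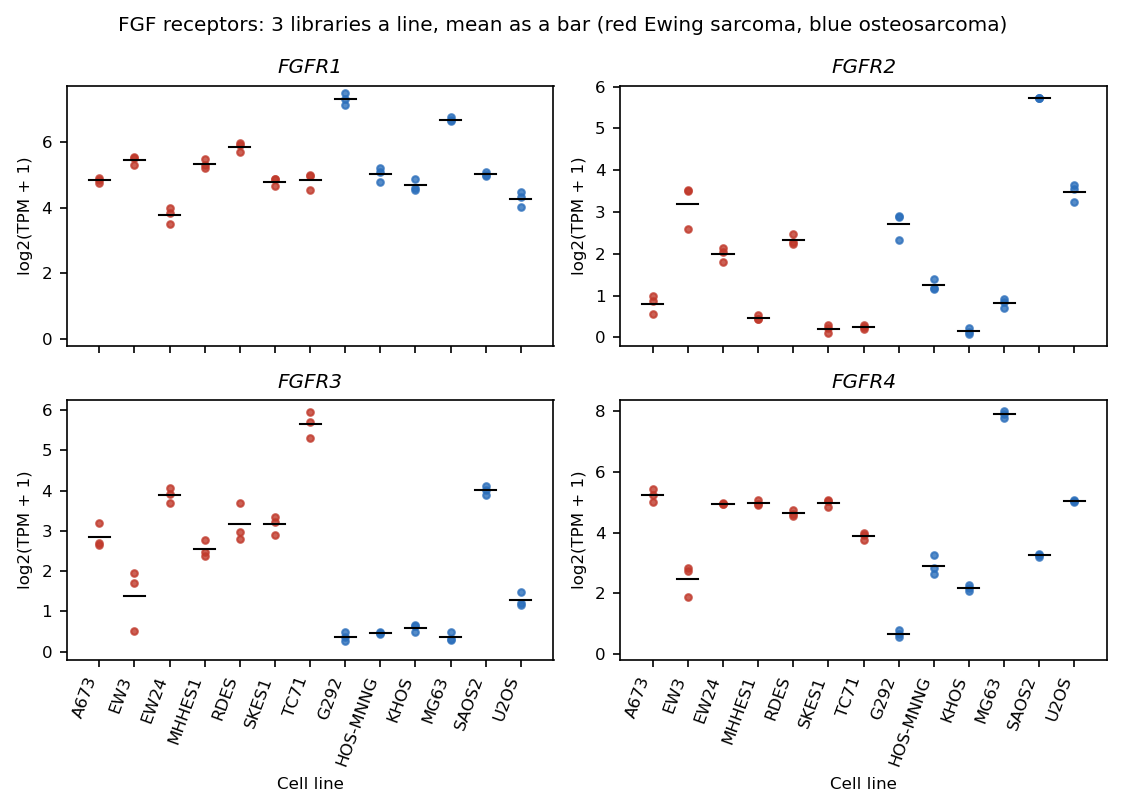
Level of FGFR1 to FGFR4 in each library (points) and the mean of each line on that scale (short horizontal line), in log2(TPM + 1), for 7 Ewing sarcoma and 6 osteosarcoma lines. MG63 stands highest for FGFR4 (239 TPM), SAOS2 for FGFR2 (51.8 TPM), TC71 for FGFR3 (50.5 TPM) and G292 for FGFR1 (160 TPM).

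All 6 feedback genes were fitted lower in the Ewing sarcoma lines by edgeR, which called 2, SPRY2 and SPRED1, beside 8.4% of all genes called lower. DESeq2 called 4, beside 24.6% of all genes called in either direction, and with the replicate block DUSP6 was fitted slightly higher (0.20). SPRY2, at chr13:80335976-80341126, ran from 1.04 (EW24) through a median of 4.65 to 11.6 ± 1.22 TPM (SKES1) in the Ewing sarcoma lines and from 7.67 ± 1.31 (U2OS) through a median of 58.7 to 140 ± 11.3 TPM (G292) in the osteosarcoma lines. SAOS2 (15.2 TPM), MG63, HOS-MNNG, KHOS and G292 were above every Ewing sarcoma line, and U2OS was the 1 osteosarcoma line inside their range. SPRY2 had a log2 fold change of -3.75 (SE 0.74, edgeR adjusted p = 0.00546). SPRED1, at chr15:38252836-38357249, ran from 2.73 (TC71) through a median of 6.35 to 11.8 TPM (EW3) in the Ewing sarcoma lines and from 3.91 (SAOS2) through a median of 23.7 to 59.3 ± 5.46 TPM (KHOS) in the osteosarcoma lines. SAOS2 and U2OS (10.9 TPM) lay inside the Ewing sarcoma range and the other 4 osteosarcoma lines above it. SPRED1 had a log2 fold change of -2.35 (SE 0.58, edgeR adjusted p = 0.0176). Both genes were called in 21 of 21 settings.

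SPRY1 and SPRY4 had fitted differences with wider standard errors than that of SPRY2, and edgeR called neither, while DESeq2 called both (adjusted p = 0.00101 and 0.0369). SPRY1 ran from 0.09 (EW24) to 2.26 TPM (A673) in the Ewing sarcoma lines with a median of 0.34, and from 0.01 (U2OS) to 38.3 TPM (MG63) in the osteosarcoma lines with a median of 5.11. U2OS was below every Ewing sarcoma line. Its log2 fold change was -4.07 (SE 1.29, edgeR adjusted p = 0.0504) and -4.34 (adjusted p = 0.0176) without U2OS, against -2.98 (0.118) without MG63 and -2.77 (0.0988) with the replicate block. SPRY4 separated the lines into high and low ones within each tumour type: KHOS (82.8 TPM), HOS-MNNG (41.2), MG63 (38.1), G292 (33.8) and A673 (18.4) were high, while SAOS2 (0.09) and U2OS (0.21) were as low as RDES (0.22), EW24 (0.13) and SKES1 (0.11). SPRY4 was not called (log2 fold change -3.37, SE 1.47, edgeR adjusted p = 0.142), and without A673 the log2 fold change was -5.35 with an adjusted p of 0.0300, whereas it was -2.74 (0.251) without KHOS and -2.71 (0.241) with the replicate block.

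DUSP6 and SPRED2 showed no called difference. DUSP6 ran from 0.46 (EW24) through a median of 26.1 to 98.3 ± 6.09 TPM (A673) in the Ewing sarcoma lines and from 0.34 (SAOS2) through a median of 48.2 to 96.3 ± 16.4 TPM (HOS-MNNG) in the osteosarcoma lines. SAOS2, U2OS (0.47 TPM) and EW24 were below 1 TPM and the other 10 lines were at 6.05 TPM or more. The log2 fold change of DUSP6 was -0.64 (SE 1.19, edgeR adjusted p = 0.764), and with 1 line left out it ran from -1.25 (without A673) to -0.25 (without KHOS). DUSP6 overlaps an annotated gene on the opposite strand by 1789 exon bases. SPRED2 ran from 6.32 (EW24) through a median of 19.6 to 39.7 TPM (A673) in the Ewing sarcoma lines and from 18.2 (SAOS2) through a median of 33.1 to 39.8 TPM (U2OS) in the osteosarcoma lines, with a log2 fold change of -0.68 (SE 0.35, edgeR adjusted p = 0.218).

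Across the 13 lines the 15 pairs of feedback genes had positive correlations of varied strength. Given without a test because lines of a tumour type share much of their programme, Pearson values on the log2 scale ran from 0.461 (SPRY2 and DUSP6, Spearman 0.374) to 0.837 (SPRY4 and SPRED1, 0.819). SPRY4 and DUSP6 had 0.756 (0.841), SPRY2 and SPRED1 had 0.825 (0.687), and SPRY1 and SPRED2 had 0.475 (0.363). EW24, SAOS2 and U2OS were low for both SPRY4 and DUSP6, and HOS-MNNG, KHOS and MG63 were high for both. RDES and SKES1 were as low for SPRY4 but not for DUSP6. The receptor FGFR1 had Pearson values between 0.345 (SPRED2) and 0.615 (SPRY1) with the feedback genes over the same lines, and Spearman values between -0.022 and 0.434, so its range overlapped that of the feedback pairs.

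**Figure D4:**
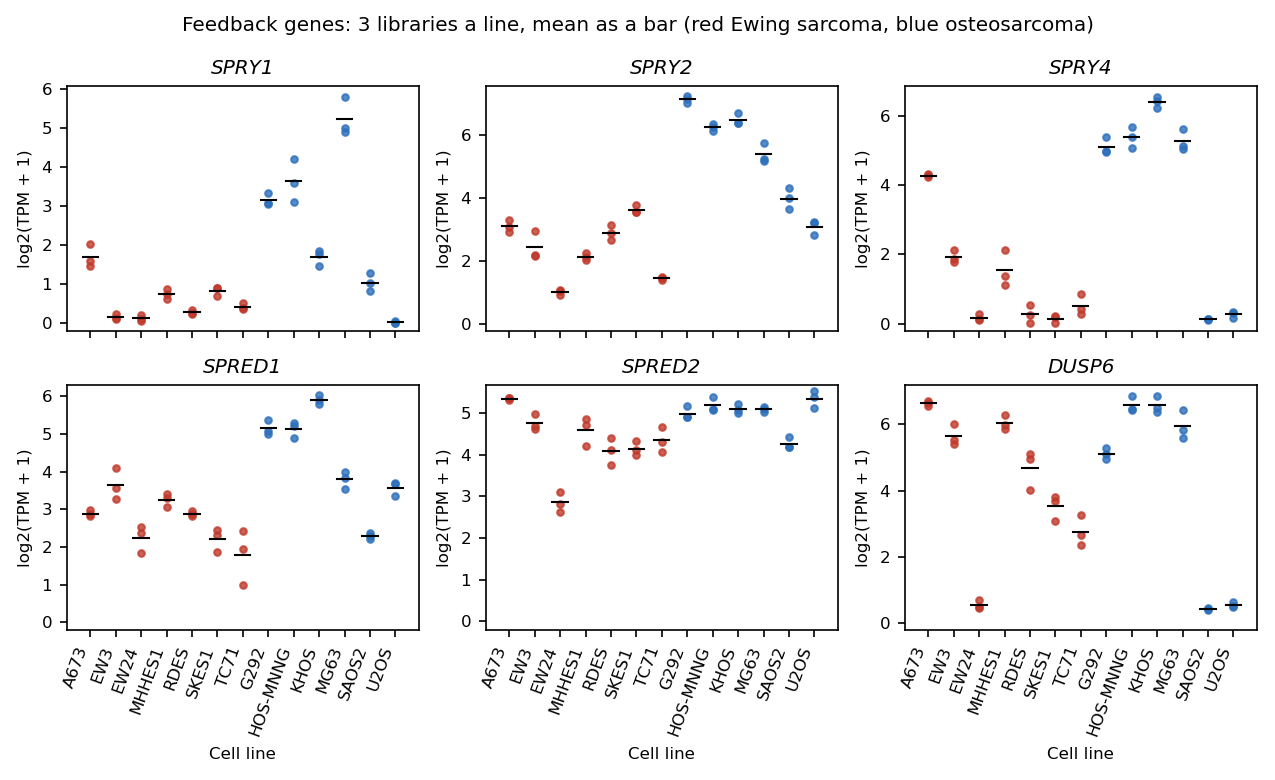
Level of the 6 feedback genes in each library (points) and the mean of each line on that scale (short horizontal line), in log2(TPM + 1), for 7 Ewing sarcoma and 6 osteosarcoma lines. SPRY2 is above 7 TPM in every osteosarcoma line, whereas SPRY4 and DUSP6 are below 1 TPM in SAOS2 and U2OS.

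Other genes of the pathway were counted from 5 lists, beside the shares of all genes given above (5.96% higher and 8.4% lower). With the replicate block more of all genes were called, 1909 higher and 2002 lower of 18052 tested (21.7% in all). Of 13 genes that ERK signalling is known to induce, 5 were called lower in the Ewing sarcoma lines and 0 higher, with a median log2 fold change of -2.85: PHLDA1 (-5.94, edgeR adjusted p = 0.00282), FOSL1 (-5.73), EGR1 (-3.88), IER3 (-3.36) and SPRED3 (-2.43). With the replicate block EGR1 (adjusted p = 0.0516) and SPRED3 (0.312) lost the call, ETV4 and DUSP5 were lower, and CCND1 (2.80, adjusted p = 0.000512) and MYC (1.72, 0.0136), which drive the cell cycle and growth, were higher. DESeq2 also called CCND1 higher (adjusted p = 0.0376). Of 21 genes for heparan sulfate proteoglycans and heparan sulfate synthesis, 6 were called lower and 0 higher, with a median of -0.83: the syndecans SDC1 (-3.79), SDC4 (-2.99) and SDC3 (-1.72) and the glypican GPC1 (-3.55), which are core proteins, and NDST1 (-1.57) and EXT1 (-1.52), which build and modify the chains. With the replicate block 6 were lower and GPC2 was higher (2.47, adjusted p = 0.00453). SDC4 ran from 5.61 to 31.4 TPM in the Ewing sarcoma lines and from 39.1 to 201 TPM in the osteosarcoma lines. Of 20 adaptor and RAS-ERK cascade genes 1 was called, MAP2K1, which encodes an ERK-activating kinase (-0.83, edgeR adjusted p = 0.036), and the median was -0.03. With the block the kinase gene BRAF was also called, higher (0.74, adjusted p = 0.0497). Of 8 FGF-binding and receptor-associated genes 7 were tested and 1 was higher, FLRT2, a membrane protein that binds FGF receptors (2.55). None of 4 splicing regulators of receptor isoforms was called by edgeR, with 2 at an unadjusted p under 0.05 and 1 called by DESeq2.

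In the sh908 cells, KCNN1 was read first as the check of the hairpin. It was 31.97, 38.9 and 37.2 TPM in the parental, 37.8, 35.3 and 17.99 TPM in the uninduced and 10.2, 13.7 and 7.75 TPM in the induced libraries. Every induced library was below every uninduced one. In the fit of the sh908 libraries without the replicate block KCNN1 was not called (log2 fold change -1.53, edgeR adjusted p = 1.0). It was called with the block (-1.46, edgeR adjusted p = 0.00132) and, without it, with all 45 libraries in 1 fit (-1.51, edgeR adjusted p = 0.0210).

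With doxycycline against without, none of the 19 members tested was called. The number called among all 14252 genes was also 0 (0.0%), with 94 genes and 0 members at an unadjusted p under 0.05 by edgeR and 2 genes called by DESeq2. With the replicate number as a block, 0.512% of the genes were called, again with 0 members, of which 3 had an unadjusted p under 0.05. DUSP6 had 79.8, 64.8 and 56.1 TPM in the uninduced and 75.3, 80.0 and 73.3 TPM in the induced libraries (log2 fold change 0.20), and FGFRL1 had 38.97, 39.8 and 31.8 against 38.1, 51.0 and 37.5 TPM (0.22). FGFR1 had 28.1, 22.8 and 26.3 against 26.7, 29.01 and 26.6 TPM (0.16), and FGFR4 had 37.8, 41.01 and 63.4 against 22.96, 42.4 and 57.8 TPM (-0.20). For each of these 4 genes the induced libraries overlapped the uninduced ones. SPRED2 had 34.1, 28.3 and 38.5 TPM uninduced and 32.2, 28.02 and 30.9 TPM induced (-0.08), and SPRY4 had 16.4, 12.5 and 17.96 against 12.95, 12.93 and 18.9 TPM (-0.05). FGF11 had 15.3, 16.9 and 22.7 against 13.4, 15.3 and 18.5 TPM (-0.18), and FGF23, described next, had a log2 fold change of 0.17. These groups overlapped too, although between libraries of the same number FGF11 and SPRED2 were each lower in the induced one in all 3. Of the pathway lists, 0 genes were called without the block, and with it 2 of 13 ERK-induced genes were higher, FOSL1 (log2 fold change 1.24, adjusted p = 0.00138 in edgeR with the block) and ETV4 (0.66, adjusted p = 0.0379).

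Between uninduced sh908 cells and parental A673, edgeR called 4 of the 20 members tested, FGF23, FGF11 and FGFR4 higher and KLB lower in the sh908 cells. FGF23 and KLB passed the count filter only through the group where each is high, so these calls are descriptions. Of the other 18 members 2 were called, FGF11 and FGFR4, beside 15.1% of all 15778 genes (8.71% higher and 6.42% lower). The parental libraries here are the same as those in the tumour comparison, and the uninduced libraries the same as those in the doxycycline comparison. The groups also differ in everything that came with making the hairpin line, which cannot be told apart from the construct. The median gene had a log2 ratio of mean TPM of -0.39 between the groups while the fitted median was 0.01, so a fitted fold change is relative to the median gene. On the TPM scale FGFR1, SPRY4 and SPRED2 were lower (log2 ratio -0.10, -0.23 and -0.24) where the fit gave 0.30, 0.20 and 0.23, none of them called.

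FGF23, the phosphate-lowering hormone, was at 0 in all 3 parental libraries. It was 12.99, 11.2 and 11.4 TPM in the uninduced and 11.95, 11.1 and 17.9 TPM in the induced libraries, so all 6 sh908 libraries carried it and no parental one did. The uninduced libraries held 1296 estimated counts in all, or 22.2 CPM (counts scaled to library depth), and the induced ones 1759, or 25.7 CPM. Against a floor of 3 counts over the parental group (0.0321 CPM), FGF23 was at least 692-fold higher in the uninduced and at least 799-fold higher in the induced cells, a bound that covers counting error only. FGF23 passed the count filter through the sh908 libraries alone, so no p is given. FGF23 was at most 0.277 TPM in the mean of any of the 13 lines, reached in TC71, so the sh908 cells stood above every line of either tumour type. The gene lies at chr12:4368227-4379712, and the 250 bases before its start are those shown above, which held none of the 6 motifs. Its coreceptor gene KL, needed for FGF23 to act, was at most 1.48 TPM in any line.

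FGF11 was 10.6, 9.51 and 10.9 TPM in the parental and 15.3, 16.9 and 22.7 TPM in the uninduced libraries. All uninduced libraries were above all parental ones, and the log2 fold change was 1.27 (SE 0.14, edgeR adjusted p = 0.00714), or 0.81 as a ratio of mean TPM. FGFR4 was 31.4, 36.9 and 42.6 TPM in the parental and 37.8, 41.01 and 63.4 TPM in the uninduced libraries, and these groups overlapped. Its fitted log2 fold change was 0.79 (SE 0.15, edgeR adjusted p = 0.0207) and its ratio of mean TPM 0.36. KLB, the coreceptor of FGF19 and FGF21, was 0.23, 0.18 and 0.31 TPM in the parental and 0.01, 0.06 and 0.03 TPM in the uninduced libraries, a level that rests on 71.7 counts against 7. Without parental replicate 1 or 2 none of the 4 was called, where only 0.0249% and 0.0125% of all genes were. Without parental replicate 3 there was 1, where 0.0504% of all genes were called. Without uninduced replicate 3, which stands apart, 13 of 21 members were called, where 62.3% of all genes were. In that last setting FGF11 (1.31, adjusted p = 1e-06) and FGFR4 (0.78, 6.8e-05) kept their direction.

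The other abundant members were not called between uninduced and parental cells with all libraries. DUSP6 had 104, 98.9 and 91.9 TPM in the parental and 79.8, 64.8 and 56.1 TPM in the uninduced libraries, without overlap on this scale, and its fitted log2 fold change was -0.04 (edgeR adjusted p = 0.929). FGFR1 (25.7, 29.1 and 27.8 TPM in the parental libraries), FGFRL1 (33.9, 38.3 and 36.6), SPRY4 (18.9, 18.4 and 17.8) and SPRED2 (40.04, 38.9 and 40.1) had fitted log2 fold changes of 0.30, 0.54, 0.20 and 0.23 with edgeR adjusted p between 0.193 and 0.402. Without uninduced replicate 3, however, FGFR1 (0.46, adjusted p = 0.00116), FGFRL1 (0.80, 5e-06), SPRY4 (0.29, 0.0330) and SPRED2 (0.34, 0.00451) were called higher, in the setting that called 62.3% of all genes. The pathway lists stand beside 15.1% of all genes called in the fit with all libraries (8.71% higher and 6.42% lower). Of 19 heparan sulfate genes tested, the proteoglycan HSPG2 was called higher (1.20) and 6 lower in the uninduced cells. Of these 6, the 5 with the greatest fitted decrease were SDC4 (-1.17), GPC4 (-1.14), SDC2 (-0.93), GPC6 (-0.70) and AGRN (-0.60). With the replicate block, which called 2.02% of all genes, HSPG2 kept the call and the 6 lost it. Of 20 cascade genes, the kinase genes MAPK3 (1.27) and ARAF (0.68) were called higher and PTPN11 (-0.70) and MAP2K1 (-0.46) lower, and MAPK3 alone kept the call with the block. FGFBP3, an FGF-binding protein gene (-0.87, 1 of 5 tested), and PHLDA1 (-2.07, 1 of 13 ERK-induced genes) were called lower, and both lost the call with the block. DESeq2, which called 26.4% of all genes, also called 3 ERK-induced genes higher. These were EGR1 (2.40, DESeq2 adjusted p = 0.00345), FOS (2.67, 0.0202) and SPRED3 (1.11, 0.0164).

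**Figure D5:**
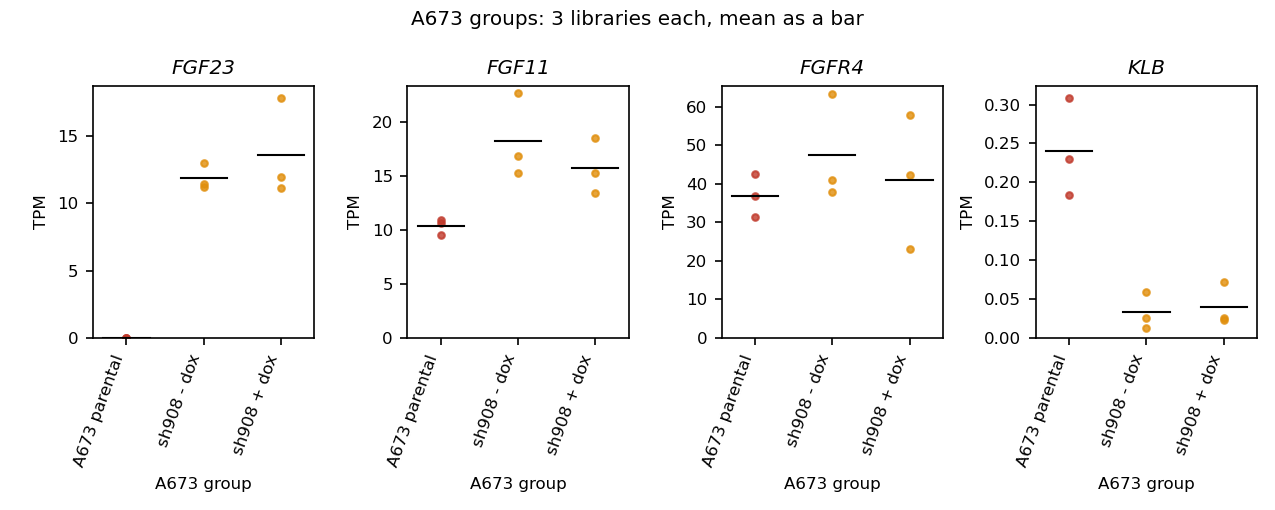
Level of FGF23, FGF11, FGFR4 and KLB in parental A673, uninduced sh908 and induced sh908 cells, in TPM, with each of the 3 libraries per group as a point and the group mean as a short horizontal line. FGF23 is at 0 in the parental libraries and between 11.1 and 17.9 TPM in all 6 sh908 libraries, FGF11 is higher and KLB lower in the sh908 groups than in parental cells, and induced and uninduced points overlap.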

How the data were processed

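RNA was extracted and turned into stranded poly(A) libraries with commercial kits, per the labels. The authors deposited 1 table per library for 177816 RefSeq transcripts. Per the file headers it holds estimated counts (not scaled for depth) and TPM (which the authors scaled for transcript length and library depth); the effective length, another deposited value, entered only the alternatives with a length offset. The submitters' processing notes name fastp 0.19.5 and kallisto 0.46.2, but whether strand was used is not given in the sources used here, nor is how reads shared by paralogues were split.

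Transcripts were matched by identifier to RefSeq genes of GRCh38.p14, which assigned 169966 of them (95.6%); the rest held 0.91% to 1.6% of a library's counts. Estimated counts and TPM were summed per gene, and sums of counts were rounded. Tests used edgeR 4.0.16 (quasi-likelihood, robust, filterByExpr, TMM) in R 4.3.3 with Benjamini-Hochberg adjustment over all genes tested, called under 0.05. Between tumour types the 3 libraries of a line were summed (7 lines against 6); the sh908 comparisons were 3 libraries against 3. The labels do not say that replicates came from separate cultures, so those p-values measure the spread between libraries, which may be technical. The tumour and doxycycline fits were tested on simulated counts. DESeq2 1.42.0, a replicate block (limma 3.58.1 between tumour types, edgeR in the A673 comparisons), no filter, length offsets, 1 sample for the HOS derivatives and left-out lines or libraries were the alternatives. Exact permutation tests used log2(TPM + 1), or 0.1 TPM added. Same-numbered sh908 libraries with and without doxycycline deviated together (r = 0.683, 0.582 and 0.881 across genes). Replicates 1 and 2 also did so across numbers (0.517 and 0.608). Only replicate 3 is thus set apart, and the numbers are not shown to pair replicates 1 and 2. They were treated as pairs all the same, and the block is given beside the fit without it. Same-numbered uninduced and parental libraries did not deviate together in this way (0.045, 0.087 and 0.25).

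The 35 members and the pathway lists were chosen with earlier results of these data known. Described in full were, between tumour types, every called member, FGF2, FGF11 (added after its values were seen), FGFR1 to FGFR4 and the feedback genes; in the A673 comparisons, called members and those with a mean of at least 10 TPM; of each pathway list, the called genes, up to 5 each way by size (between tumour types the heparan sulfate list is given whole, with 6). Exon overlaps come from GENCODE, promoter sequences from RefSeq. Fold bounds use a floor of 3 counts over a group and, like depth, cover counting error only.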

Additional observations from a re-analysis of the deposited data

Results flagged for a closer look

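Within a tumour type, 1 line lay far from the others for 8 members, by the gap between the outermost line and its nearest neighbour relative to the whole range, on log2(TPM + 1). Of 43 groups of lines checked 9 were picked out, by a rule nominally set to pick about 1 in 20. The share this rule picks over all genes was not counted, so the 9 are not set apart from other genes. In the osteosarcoma lines MG63 was the high line for FGF18 (90.58 TPM), FGF7 (53.75 TPM) and FGF9 (3.866 TPM), ligands of 3 different subfamilies. U2OS was the high osteosarcoma line for FGF21 (3.068 TPM) and FGF12 (1.949 TPM). SAOS2 was the high osteosarcoma line for FGFR3 (15.19 TPM) and the low one for SPRED2 (18.19 TPM). Among the Ewing sarcoma lines MHHES1 was high for FGF2 (7.352 TPM) and EW3 for FGF12 (2.184 TPM). The cause of these differences was not tested.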

How the results depend on the processing

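Between the tumour types DESeq2 called 12 members, 5404 of all genes and 21 pathway genes, against 7, 3159 and 13 with edgeR. Leaving out 1 line or 1 replicate number gave 3 members (without SKES1, where 10.6% of all genes were called) to 10 (without SAOS2, 13.7%). There were 4 without EW3 (11.9%) or EW24 (11.3%). FGF19 had too few counts to be tested when A673, EW3, EW24, MHHES1, RDES or SKES1 was left out. Pathway genes called ran from 8 (without EW24, RDES or TC71) to 15 (without SAOS2). With the replicate block in limma, 8 of 22 members were called, beside 21.7% of all genes. In this fit FGFR4 (0.93), DUSP6 (0.20), FGF18 (0.33) and FGF14 (0.07) changed sign. Members fitted near 0 (FGF12, FGF14, FGF22 and KLB) also did so in other settings. FGFR4 ran from -1.36 to 1.31 with lines left out, positive without MG63. Adding 0.1 instead of 1 TPM left 10 of 35 members under an unadjusted exact permutation p of 0.05, with SPRY1 at 0.0583.

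With doxycycline, all genes called numbered 2 by DESeq2, 73 with the replicate block, 12 with all 45 libraries in 1 fit and 28 without replicate 3 of both sh908 groups, a setting chosen after seeing the data; no setting called a member. Small log2 fold changes crossed 0 as libraries were left out: FGF23 -0.016 to 0.34 (-0.052 without both replicates 3), FGFR4 -0.35 to 0.015, FGFRL1 -0.034 to 0.43, SPRY4 -0.12 to 0.10, SPRED2 -0.26 to 0.077 and DUSP6 -0.055 to 0.44.

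Between uninduced and parental A673 the numbers do not pair the libraries. The replicate block gave 2 members (FGF23 and FGF11) and 319 genes, and all 45 libraries in 1 fit gave 9 members and 7558 genes. DESeq2 called 4169 genes. Leaving out 1 library gave 0 to 13 members and 2 to 10202 genes: 4, 2 and 8 genes without parental replicate 1, 2 or 3, and 1377, 266 and 10202 without uninduced replicate 1, 2 or 3. DUSP6 ran from -0.27 to 0.23. The bound for FGF23 ran from 416-fold to 748-fold. Causes of these shifts were not tested. Depth limits members under 1 TPM, whose values rest on few counts.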

Other observations

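The protein-coding genes around FGF23 on chromosome 12 are given by their mean level in parental and in uninduced sh908 cells. FGF6, the next FGF gene, had 0.0373 and 0 TPM, AKAP3 had 0.162 and 0.382 TPM, TIGAR had 4.06 and 1.88 TPM, and the cyclin gene CCND2 had 0.02 and 0.01 TPM. FERRY3 had 21.6 and 17.4 TPM, RAD51AP1 had 90.1 and 41.3 TPM, and DYRK4 had 33.1 and 37.8 TPM. In the edgeR fit, relative to the median gene, DYRK4 was called higher in the uninduced cells (log2 fold change 0.70, adjusted p = 0.0358). These genes were chosen for their position.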
